A study of Mus musculus with 12 samples.

Results

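The accessible regions described here are those at the promoters of protein-coding genes in mouse embryonic stem (ES) cells. They were taken from a merged list of ATAC-seq peaks as the autosomal regions whose centre lay at most 1 kb from the transcription start site (TSS) of a protein-coding transcript in the GENCODE annotation of mm10 (GRCm38). The rule selected 18274 of the 166526 regions on autosomes (11.0%, 95% Wilson interval 10.8 to 11.1%), out of 170548 regions in the whole list. These members held 21.7% of the bases of the autosomal list. A further 10355 autosomal regions lay within 1 kb only of a TSS of another kind of transcript, such as a non-coding RNA, a pseudogene or a transcript without a coding sequence, and 137897 were distal, centred more than 1 kb from any annotated TSS.

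ATAC-seq uses the Tn5 transposase to place sequencing adapters where DNA is not covered by nucleosomes. The samples of the series are 12 libraries in 6 groups of 2 replicates from ES cells cultured in serum with 2 kinase inhibitors and LIF, and the list pools peaks of both cell lines. Whether libraries of a published dataset in serum + LIF were also merged into it is not given in the sources used here. ZHBTc4 cells, in which a Tet-Off transgene is the source of OCT4 (encoded by Pou5f1), were left untreated (OCT4 ON) or given 1 µg/ml doxycycline (dox) for 24 hr (OCT4 OFF), and 2TS22C cells, in which such a transgene is the source of SOX2, were left untreated (SOX2 ON) or given dox for 26 or 40 hr (SOX2 OFF). Each cell line is a clone, so each factor was studied in 1 clone. The list gives a start and an end for each region, with no height and no value per library, so the depth per sample is unknown here and dox-treated cells could not be compared with untreated ones. A region of the list says that a peak was called in some library, and its width is that of the union of overlapping peaks.

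Promoters are the sequences around a TSS where general transcription factors and RNA polymerase II assemble. In mammals, many of them, above all those of genes used in every cell, lie in CpG islands, stretches in which the dinucleotide CpG has escaped the loss caused by cytosine methylation and which are usually free of nucleosomes at the TSS. Promoters poor in CpG are more often those of genes used in a single tissue, and the TATA box, which positions the polymerase upstream of the TSS, is found mostly among them. Where the TSSs of neighbouring genes on opposite strands lie close together and point away from each other, the genes are called a head-to-head pair and can share an open stretch of DNA. Many genes also have alternative promoters, whose transcripts start at different first exons.

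Sequences of 8 promoters are given as examples of these kinds. They are read from GRCm38, 5′ to 3′, without annotated exons, with each CpG in capitals. For 3 head-to-head pairs the longest exon-free stretch between both TSSs, up to 300 bases, is given on the plus strand, so that the gene named first is transcribed to the left and the other to the right. Mrps12/Sars2, which encode a protein of the mitochondrial ribosome and the mitochondrial seryl-tRNA synthetase, is read from chr7:28741821-28741991. Brca1/Nbr1, a DNA repair gene and the gene of an autophagy receptor, is read from chr11:101551956-101552148. Atm/Npat, the DNA damage kinase and an activator of histone genes, is read from chr9:53536747-53537046.
Mrps12/Sars2: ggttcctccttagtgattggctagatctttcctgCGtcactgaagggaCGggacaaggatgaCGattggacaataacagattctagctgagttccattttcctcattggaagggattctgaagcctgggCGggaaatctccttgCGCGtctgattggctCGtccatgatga
Brca1/Nbr1: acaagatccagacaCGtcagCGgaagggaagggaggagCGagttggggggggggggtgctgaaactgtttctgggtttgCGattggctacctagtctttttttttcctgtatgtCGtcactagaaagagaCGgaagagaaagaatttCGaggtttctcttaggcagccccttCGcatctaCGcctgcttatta
Atm/Npat: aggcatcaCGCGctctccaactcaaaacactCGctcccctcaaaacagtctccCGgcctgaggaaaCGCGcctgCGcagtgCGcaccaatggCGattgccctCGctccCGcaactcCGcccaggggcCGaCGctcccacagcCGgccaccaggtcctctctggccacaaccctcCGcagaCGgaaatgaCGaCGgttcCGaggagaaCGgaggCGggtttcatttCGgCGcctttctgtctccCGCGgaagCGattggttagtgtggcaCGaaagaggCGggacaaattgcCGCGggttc

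For 5 single promoters the 150 bases upstream of the principal TSS are given on the strand of the gene. Rplp0 (chr5:115559317-115559466, plus strand), a gene of the large ribosomal subunit, and Sox2 (chr3:34650255-34650404, plus strand) were CpG-rich. Pou5f1 (chr17:35505868-35506017, plus strand) was CpG-poor and had a region. Alb (chr5:90460747-90460896, plus strand), the gene of serum albumin, and Myh6 (chr14:54966642-54966791, minus strand), the gene of a heart myosin, were CpG-poor and had none.
Rplp0: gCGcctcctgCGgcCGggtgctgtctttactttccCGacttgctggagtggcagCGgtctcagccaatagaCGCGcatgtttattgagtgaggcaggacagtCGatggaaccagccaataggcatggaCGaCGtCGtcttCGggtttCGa
Sox2: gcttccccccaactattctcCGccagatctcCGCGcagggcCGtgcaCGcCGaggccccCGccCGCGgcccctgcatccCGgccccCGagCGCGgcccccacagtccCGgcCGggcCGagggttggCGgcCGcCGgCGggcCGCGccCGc
Pou5f1: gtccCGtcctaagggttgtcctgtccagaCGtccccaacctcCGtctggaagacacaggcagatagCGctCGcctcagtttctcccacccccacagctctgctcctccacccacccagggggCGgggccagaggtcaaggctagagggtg
Alb: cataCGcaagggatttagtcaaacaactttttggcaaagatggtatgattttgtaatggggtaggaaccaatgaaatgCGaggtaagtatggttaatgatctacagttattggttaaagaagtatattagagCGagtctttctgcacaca
Myh6: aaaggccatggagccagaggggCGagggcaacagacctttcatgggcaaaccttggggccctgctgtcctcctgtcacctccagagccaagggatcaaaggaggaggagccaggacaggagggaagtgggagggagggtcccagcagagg

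The printed stretch of Sox2 held 23 CpG dinucleotides and that of Rplp0 held 13, against 6 at Pou5f1, 3 at Alb and 1 at Myh6, in 150 bases each. The Myh6 stretch shows that GC content and CpG number are separate properties, with 62.7% GC and 1 CpG. The Atm/Npat stretch held 10.3 CpG per 100 bp, Brca1/Nbr1 held 4.66 and Mrps12/Sars2 held 4.09. Every base printed for the pairs and for Rplp0, Sox2 and Pou5f1 lay inside an accessible region, and none of the bases printed for Alb and Myh6 did. The CCAAT box, searched as CCAAT on both strands, occurred 4 times between Mrps12 and Sars2, each time on the minus strand. It also occurred in the stretches of Brca1/Nbr1, Atm/Npat, Rplp0 and Alb, and not in those of Sox2, Pou5f1 and Myh6. It was thus found both inside and outside accessible regions.

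Members were the widest class of the list. Their median width was 987 bp (quartiles 584 and 1293 bp), against 409 bp (234 and 676 bp) for regions at other promoters and 344 bp (213 and 559 bp) for distal regions. Widths of at least 1000 bp were reached by 48.9% of members, by 9.52% of regions at other promoters and by 4.61% of distal regions. Of all autosomal regions under 200 bp, 3.37% were members, and of those of at least 2000 bp, 73.3% were. The difference in median width between members and distal regions was 643 bp, and between 536 and 729.5 bp on single autosomes. It had the same direction on 19 of 19 autosomes (exact two-sided sign test, p = 3.8e-06, adjusted p = 5.4e-06 over 24 tests). That is the smallest p-value this test can give with 19 autosomes. The autosomes are parts of 1 pooled list and not replicates. Such a p-value reflects only how often the direction of a difference was the same across autosomes, and not its size or its evenness.

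**Figure D1:**
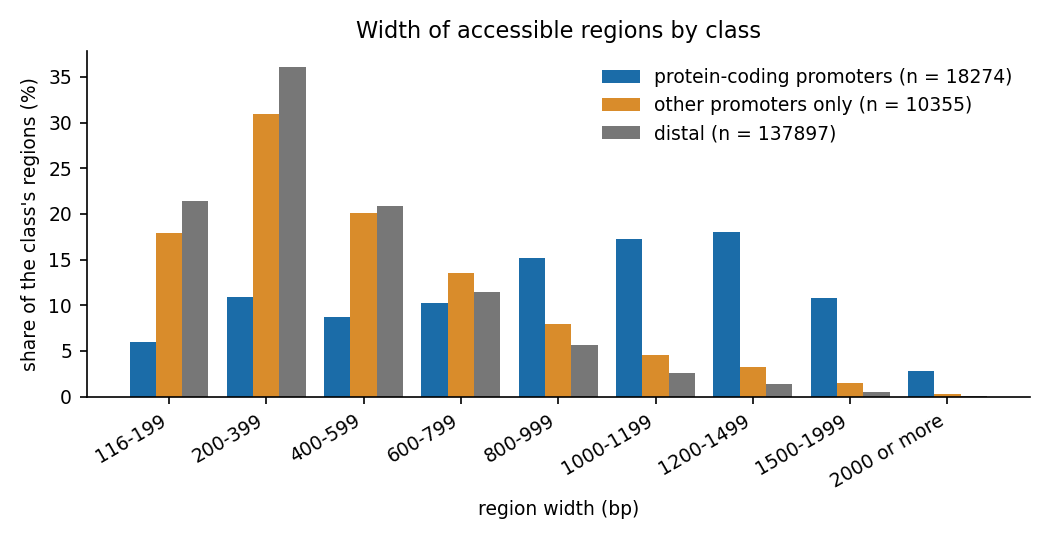
Width of accessible regions in 3 classes. The x axis gives the width in bp in 9 bins of unequal size, and the y axis the share in percent of the regions of each class, for 18274 members at protein-coding promoters (blue), 10355 regions at other promoters only (orange) and 137897 distal regions (grey). The members' bars peak at 1200 to under 1500 bp with 18.0%, where distal regions hold 1.41%, and the distal bars peak at 200 to under 400 bp with 36.1%.

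The distribution of member widths had a second, smaller part among narrow regions. There were 1996 members of 200 to under 400 bp, more than the 1592 of 400 to under 600 bp, and in bins of the same size numbers rose again to 3155 at 1000 to under 1200 bp. Narrow members differed from wide ones in position and composition. Of members under 200 bp, 16.0% covered a protein-coding TSS and 8.88% were CpG-rich, while of those of 1200 to under 1500 bp 98.8% covered a TSS and 82.3% were CpG-rich. A region or promoter is called CpG-rich here when its observed over expected CpG ratio exceeded 0.6 and its GC content 50%, computed for regions on their own bases and for promoters on 500 bp to either side of the TSS. The 14690 members that covered a TSS (80.4%) had a median width of 1093.5 bp, and the 3584 that covered none had 309 bp. A narrow region can cover a TSS only if centred close to it. These differences in coverage are thus in part set by width itself.

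The widest member, 38280 bp at the start of the assembled sequence of chromosome 9 (chr9:3000002-3038281, at Gm10719), was 96.3% repeat-masked, against a median of 6.03% over members. The next was 8831 bp at Cdk2ap1 (chr5:124346085-124354915), which encodes a partner of the cell cycle kinase CDK2. The other 8 of the 10 widest were 3115 to 3554 bp wide and lay at Tlk2, a kinase gene of chromatin assembly, Nsd1, which encodes a histone H3 methyltransferase, Nrp1, the gene of a co-receptor for semaphorins and VEGF, Tlx2, a homeobox gene, Tfap4, Tlnrd1, Fat4, an atypical cadherin gene, and Hivep2. In these 8, CpG content ran from 5.36 to 8.88 per 100 bp, and repeat-masked bases from 1.35 to 14.4%. No member between 3554 and 8831 bp was found, so the widest 2 stood apart from the rest.

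Members were richer in CpG than the other classes. Their median was 5.54 CpG per 100 bp, against 1.81 at other promoters and 1.22 in distal regions, and their median GC content was 59.0% against 51.2 and 48.3%. CpG-rich regions made up 57.04% of members (56.3 to 57.8%), 10.3% of regions at other promoters and 2.96% of distal regions. The median CpG content of members exceeded that of distal regions on 19 of 19 autosomes (exact sign test, adjusted p = 5.4e-06), by 3.62 to 4.92 per 100 bp. Comparisons of members with regions at other promoters, added after the values were seen, gave 578 bp in width and 3.73 CpG per 100 bp, each with the same sign on 19 of 19 autosomes (exact sign test, adjusted p = 5.4e-06). The 10424 CpG-rich members had a median width of 1173 bp and the 7850 CpG-poor members 580 bp.

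Composition and coverage of the TSS each went with width. A member centred at a given distance from a TSS covers it only if wide enough, so the link with coverage is in part set by geometry. Among CpG-poor members, those that covered a TSS had a median width of 836 bp (n = 4756) and those that did not 295 bp (n = 3094). Among CpG-rich members the values were 1190 bp (n = 9934) and 502 bp (n = 490). CpG content around the centre was higher than over whole regions for CpG-rich members but not for CpG-poor ones. In the 300 bp around the centre the median was 10.0 CpG per 100 bp in CpG-rich members, against 7.29 over whole regions. In CpG-poor members it was 2.67 against 2.70, with 3.67 against 3.39 in those that covered a TSS and 1.67 against 1.78 in the others. The median in this window was 7.0 in all members and 1.33 in distal regions. For regions under 300 bp the window reaches beyond the region.

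Member centres lay slightly downstream of the TSS. The median signed offset from the nearest protein-coding TSS, positive in the direction of transcription, was 44.5 bp (quartiles −69.0 and 197 bp), and 60.8% of centres were downstream. The median was positive on 19 of 19 autosomes, from 28.0 to 63.75 bp (exact sign test, adjusted p = 5.4e-06). Centres were within 100 bp of the TSS for 39.7% of members and within 250 bp for 69.1%, while 14.99% were more than 500 bp away. The median member that covered a TSS reached from 470 bp upstream to 587 bp downstream of it. CpG-poor members were less tightly placed, with a median distance between centre and TSS of 200.5 bp against 112.5 bp for CpG-rich ones, a difference of the same sign on 19 of 19 autosomes in a comparison added after the values were seen (exact sign test, adjusted p = 5.4e-06).

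The distance limit cut through a continuous distribution. The 5 members closest to it were centred 999.5 or 1000 bp from a TSS and the 5 closest regions outside it 1000.5 or 1001 bp. Within 100 bp of the limit there were 493 regions inside, with a median width of 369 bp, and 480 outside, with 341 bp. Another 18 regions, 2245 to 35531 bp wide, covered a protein-coding TSS but were centred too far from any to be members.

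At least 1 member was found for 15278 of the 20757 autosomal protein-coding genes (73.6%, 73.0 to 74.2%). Such a gene or TSS, with a member centred within 1 kb, is called open in what follows, in the sense that the pooled list held a region there. A region covered a TSS of 68.6% of genes. Most open genes, 12097, had 1 member, 2395 had 2, 538 had 3 and 248 had 4 or more, up to 9. In reverse, 16946 members were within 1 kb of the TSSs of 1 gene, 1293 of 2 genes and 35 of 3 or more. For the 5479 genes without a member the nearest region was centred at a median of 7459.5 bp, within 5 kb for 38.7% of them and more than 50 kb away for 449.

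CpG content separated open from other promoters. The principal TSS of each gene, that of its APPRIS principal transcript, was CpG-rich for 9824 genes, and 99.1% of these were open (98.9 to 99.3%). Of the 10933 CpG-poor principal TSSs, 44.2% were open (43.3 to 45.2%). The difference of 54.9 percentage points had the same direction on 19 of 19 autosomes, from 37.1 to 63.1 points (exact sign test, adjusted p = 5.4e-06). The share rose in steps from 6.69% of principal TSSs with under 0.5 CpG per 100 bp to 45.7% at 1.5 to 2 and 93.4% at 3 to 4, and it was 99.6% at 8 or more. The median width of the widest member rose in the same bins from 338 bp to 1396 bp. Each bin holds other genes of the same list, so these shares are a description across promoters.

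**Figure D2:**
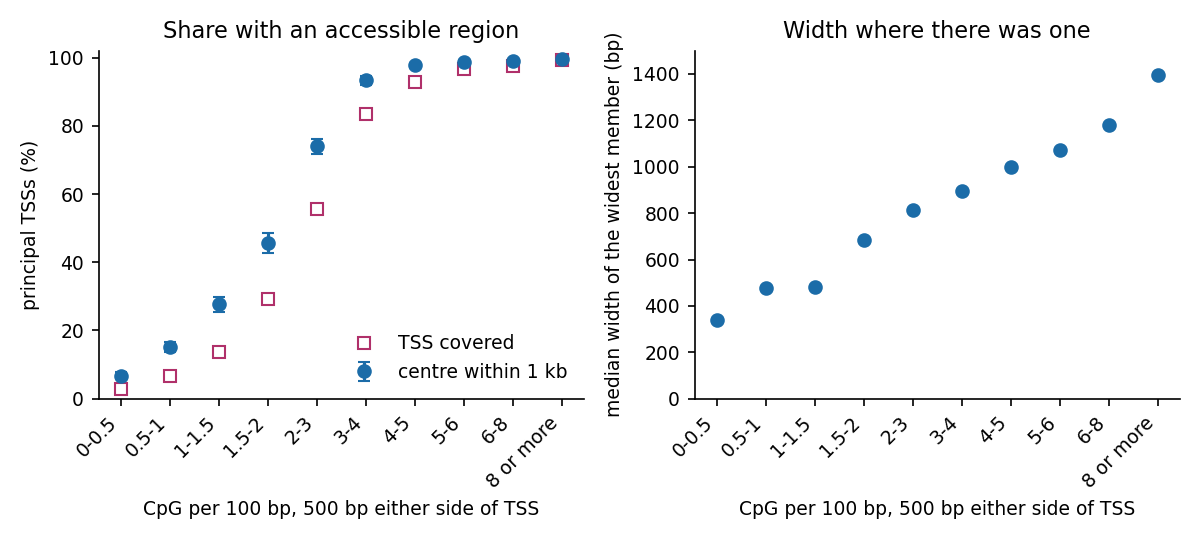
Open principal TSSs by CpG content. The x axis of both panels gives CpG per 100 bp within 500 bp of the TSS, in 10 bins. Left, the share in percent of principal TSSs with a member centred within 1 kb (filled circles with 95% Wilson intervals) and the share covered by a region (open squares), which rise from 6.69% and 2.79% to 99.6% and 99.2%. Right, the median width in bp of the widest member of the gene, from 338 to 1396 bp.

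The 68 CpG-rich genes with no member at any TSS fell into 3 kinds. For 42 of them, fewer than 50% of the 31-base words within 500 bp of the TSS occurred once in the genome, against 76 of 9756 CpG-rich genes with a member (0.779%). Read pairs from such sequence can be placed in several positions, and the part of this in the missing regions was not tested. Another 12 had a TSS covered by a wide region centred more than 1 kb away, among them Igf1r, the gene of the IGF1 receptor (2294 bp), and the developmental transcription factor genes Sox21 (2951 bp), Pou3f1 (2829 bp), Foxb1 (2797 bp) and Sall1 (2245 bp). The last 14 had neither property, and included Hoxa3 and Hoxa6 of the HoxA cluster, Ap1m2, which encodes an adaptor subunit of epithelial cells, Cnn2, Gipc3, Pappa, Slc5a5, the iodide transporter gene, and Jade2. Pappa and Mllt6 had a region with its edge 307 and 324 bp from a TSS. These genes were named after their values were seen. Among promoters with at least 50% unique words, a member was present for 99.7% of CpG-rich and 54.2% of CpG-poor genes, and among the others for 64.4 and 15.9%.

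The coverage around the principal TSS was not symmetrical. Positions were counted from 1 TSS per gene, the 5′-most in ties, and the part of this choice in the asymmetry was not tested. At single CpG-rich genes, with no TSS of another protein-coding gene within 1 kb, a region covered the TSS itself in 97.6% of genes, the position 500 bp downstream in 80% and the position 500 bp upstream in 46.0%. At the 1689 CpG-rich genes of head-to-head pairs the order was the opposite, with 59.8% downstream and 75.3% upstream, where the partner's TSS lies. Over all single genes the downstream coverage exceeded the upstream coverage by 20.9 percentage points, on 19 of 19 autosomes. Over all genes of head-to-head pairs it was lower by 15.9 points, again on 19 of 19 (exact sign test, adjusted p = 5.4e-06 for each, both added after the values were seen). CpG-poor genes were covered at the TSS in 34.2%, downstream in 20.5% and upstream in 10.3%.

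**Figure D3:**
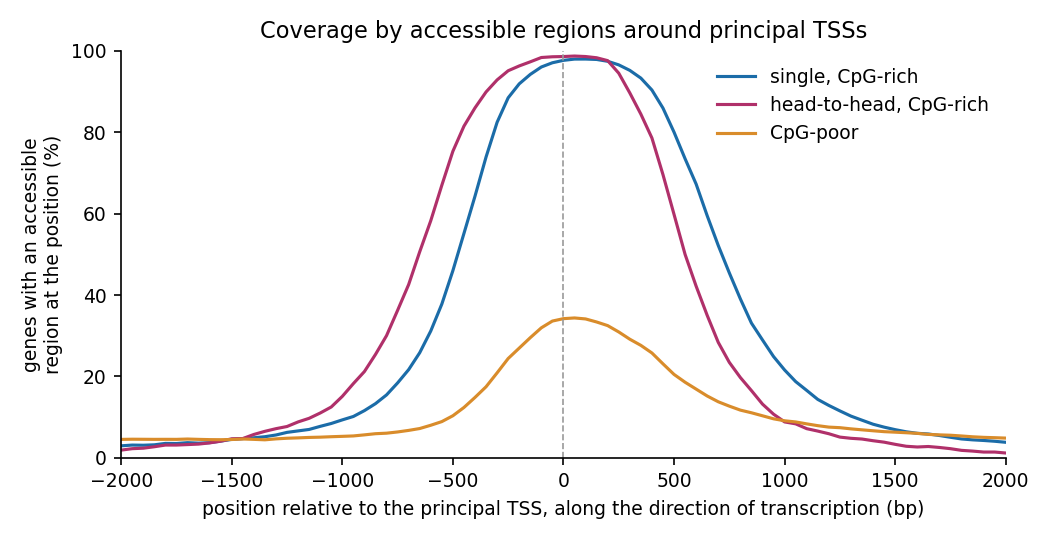
Coverage around the principal TSS. The x axis gives the position in bp along the direction of transcription, with the TSS at 0, and the y axis the share in percent of genes in which that position lies in an accessible region, for 7786 single CpG-rich genes (blue), 1689 CpG-rich genes of head-to-head pairs (red) and 10933 CpG-poor genes (orange). The blue curve is shifted to the right of the TSS and the red curve to the left, and at −500 bp they stand at 46.0 and 75.3%.

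Head-to-head pairs were nearly always open, mostly under 1 shared region. With TSSs at most 1 kb apart, 1068 pairs were found, which hold 2102 genes (10.1% of all). Pairs were counted by annotated gene entry, so some share a region, such as Aspa/Spata22 and Aspa/Gm49340. The counts, shares and widths of pairs therefore take in some regions more than once, and the intervals treat pairs as independent. The median distance between the TSSs was 120.5 bp. A member was present at 1031 pairs (96.5%, 95.3 to 97.5%), and at 963 pairs (90.2%) 1 region covered both TSSs. Of the pairs with a member, 970 had exactly 1 and 61 had 2, and 16 pairs had a member within 1 kb of the TSS of 1 partner alone. Of the 37 pairs without a member, 26 had no CpG-rich principal TSS, against 106 of the 1031 pairs with a member.

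A member was present for 97.5% of genes in such pairs (96.7 to 98.1%) and for 70.5% of the 18031 single genes (69.8 to 71.1%), a difference with the same direction on 19 of 19 autosomes (exact sign test, adjusted p = 5.4e-06). The pairs were also richer in CpG, with 80.4% of their genes CpG-rich against 43.2% of single genes. Within CpG-rich genes the shares were 99.5 and 99.3%, which differed by 0.271 percentage points, higher in pairs on 13 autosomes and lower on 3 (exact sign test, p = 0.021, above 0.05 after multiplication by the 24 tests). Within CpG-poor genes they were 89.1% (85.7 to 91.8%, n = 413) and 48.6% (47.6 to 49.6%, n = 10245). The share of open CpG-poor genes was 95.5% (91.0 to 97.8%) where the partner was CpG-rich and 85.2% (80.4 to 89.0%) where it was not. A region at the partner's TSS can itself lie within 1 kb of the gene, and its part in these shares was not tested.

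The 1011 members at pairs had a median width of 1200 bp against 967 bp for the 16946 at single genes (19 of 19 autosomes, exact sign test, adjusted p = 5.4e-06). Among CpG-rich members the medians were 1234 and 1166 bp, a difference of 68.0 bp with 16 autosomes higher and 2 lower. With members restricted further to those covering a TSS, a setting chosen after seeing the data, it was 50.0 bp with 15 higher and 4 lower (exact sign test, p = 0.019, above 0.05 after multiplication by the 24 tests). Regions over both TSSs were centred close to the midpoint between them, with a median of 13.0 bp towards the plus-strand gene (quartiles −106 and 124.5 bp). Their median width was 1178 bp where the TSSs were 1 to 99 bp apart and 1308 bp at 300 to under 500 bp. At 500 to 1000 bp it was 1666 bp, and the share of pairs under 1 region was 52.5%, against 95.9% at 1 to 99 bp. A region is counted here only if it spans the distance between the TSSs, so both trends are in part set by this selection.

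**Figure D4:**
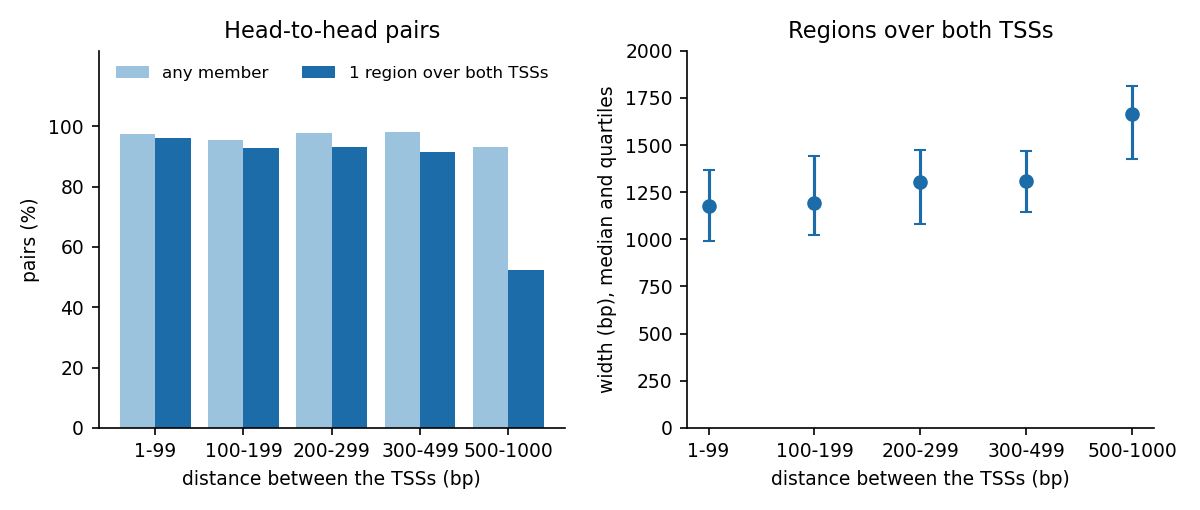
Head-to-head pairs by the distance between their TSSs. The x axis gives the distance in 5 bins in bp. Left, the share in percent of pairs with any member (light bars) and with 1 region over both TSSs (dark bars), which falls from 95.9% to 52.5% in the widest bin. Right, the width in bp of regions over both TSSs, as median (circles) with the lower and upper quartiles (bars), from 1178 bp to 1666 bp. Only regions that span the distance are counted, which in part sets both trends.

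Each of the 7 named pairs found in the annotation had 1 region over both TSSs, and their widths did not follow the order of the distances. Hspd1 and Hspe1, the mitochondrial chaperonin and its co-chaperonin, start 108 bp apart under a region of 1334 bp (chr1:55087281-55088614). Surf1 and Surf2 start 22 bp apart under 918 bp, and Mrps12 and Sars2 182 bp apart under 848 bp (chr7:28741569-28742416), the narrowest of the 7. Brca1 and Nbr1, 270 bp apart, lay under 1440 bp, and Atm and Npat, 307 bp apart, under 1430 bp. Mcm4, a subunit of the replicative helicase, and Prkdc, a DNA repair kinase gene, start 489 bp apart under 1099 bp. Gart, a gene of purine synthesis, and Son, 554 bp apart, lay under 1699 bp, the widest of the 7. The listed pairs Paics/Ppat and Col4a1/Col4a2 had no divergent protein-coding TSSs within 1 kb in this annotation.

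Short sequence words were counted from 250 bp upstream to 50 bp downstream of the principal TSS, on both strands, to describe what the members share. The GC box (GGGCGG), the core of sites for SP and KLF factors, was in 62.3% of open and 7.70% of other promoters, and in 46.0% of all. As CpG-rich promoters hold more of any word with a CpG, the comparison was also made within CpG-poor promoters, after the values were seen. There the GC box was in 39.9% of open and 6.86% of other promoters, and the ETS word (CCGGAAGT) in 3.54 and 0.607%, each higher on 19 of 19 autosomes (exact sign test, adjusted p = 5.4e-06). The NRF1 word (GCGCATGC), for an activator of mitochondrial and growth genes, was in 2.17 and 0.427% (17 of 19 autosomes, exact sign test, adjusted p = 0.00092). The CCAAT box (CCAAT), which has no CpG, was in 38.0 and 39.8% (6 of 19 autosomes higher, exact sign test, adjusted p = 0.18). The TATA box (TATAAA, starting 40 to 20 bp upstream of the TSS on the strand of the gene) was in 1.84% of open and 5.86% of other CpG-poor promoters, lower on 19 of 19 autosomes (exact sign test, adjusted p = 5.4e-06). CpG content within the CpG-poor class was not matched between the groups, with medians of 3.10 CpG per 100 bp at open ones and 0.699 at genes without a member, and its part in these shares was not tested.

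Open CpG-rich promoters of pairs and of single genes differed in some of these words. The ETS word was in 14.01% of 1677 promoters in pairs and 7.65% of 7713 single promoters (17 of 19 autosomes, exact sign test, adjusted p = 0.00092), and the YY1 word (AAGATGGCG) in 5.66 and 2.77% (15 of 19 autosomes, exact sign test, adjusted p = 0.022). The TATA box was in 0.298 and 0.882% (lower on 15 of 18 autosomes with a difference, exact sign test, adjusted p = 0.009). For the GC box, 71.6 and 74.1%, and the CCAAT box, 41.1 and 36.5%, the differences had mixed signs (exact sign test, adjusted p = 1 and 0.37). The window of a gene in a pair often takes in the partner's promoter, and partners can share a window, so these promoters are not independent. A match to such a word is a description of the sequence and not a binding site.

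Genes with several promoters were described by groups of TSSs, in which TSSs less than 2 kb apart within a gene were joined. At least 2 groups were annotated for 6231 genes. Of these, 1959 had at least 2 open groups (31.4%, 30.3 to 32.6%), 2979 had 1 and 1293 had none, and 344 genes had 3 or more. The outermost open groups of a gene with several lay at a median of 20626 bp from each other. Genes in which all groups were open made up 22.4% of those with 2 groups and 4.48% of those with 5 or more.

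The group with the principal TSS was open in 71.0% of these genes (69.9 to 72.1%) and the 8804 other groups in 33.3% (32.3 to 34.3%), a difference with the same sign on 19 of 19 autosomes (exact sign test, adjusted p = 5.4e-06). Principal groups were CpG-rich in 51.3% and other groups in 8.20%. Within CpG-rich groups the shares were 99.4 and 99.3%, differing by 0.0663 percentage points, with 5 autosomes higher and 8 lower (exact sign test, p = 0.58). Within CpG-poor groups they were 41.2% (39.4 to 42.9%) and 27.4% (26.5 to 28.4%). In 514 genes only a group without the principal TSS was open. Members at other groups only were narrower, with a median of 559 bp (n = 3282) against 1087 bp at principal groups only (n = 4756), and 24.7% of them were CpG-rich against 66.4%.

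Among the 10 genes with the most open groups, Abr, a regulator of small GTPases, had 7 of 7 groups open with 9 members of 133 to 2210 bp over 156.8 kb. Pde4d, a cAMP phosphodiesterase gene with many tissue-specific isoforms, had 7 of 11 open over 788.1 kb, and Etl4 had 6 of 7. Sept9, a septin gene, and Arap1 each had 6 of 6 open. Ank2, the gene of ankyrin-B, had 5 of 8, Plec, the gene of the cytolinker plectin, 5 of 5, Myo18a 5 of 7 and Tspan5 5 of 5. Nedd4l, a ubiquitin ligase gene, had 6 of 9. In each of these 10 genes 1 or 2 of the members were CpG-rich, and the narrowest member was 133 to 226 bp wide.

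Of 20 genes listed for their alternative promoters, 19 had a member and 11 had several open groups. Kit, Dnmt3b, Prdm16 and Tcf7l1 had only 1 TSS group by the 2 kb rule and could not have several. Over all autosomal protein-coding genes 73.6% had a member, and 31.4% of those with at least 2 groups had several open. Ank1, the gene of erythrocyte ankyrin, had 5 of 5 groups open and the DNA methyltransferase gene Dnmt3a 3 of 7. The imprinted gene Gnas had 3 of 4 open, Pax6, a regulator of eye and brain development, 3 of 4, Bdnf, the gene of a neurotrophin, 2 of 3, and Cdkn2a, which encodes p16 and p19ARF from separate first exons, 2 of 2. Mitf had 1 of 4 open and Trp73 1 of 4. Runx1, a regulator of blood formation with promoters far apart, had 1 of 2 open, with a region of 2377 bp. Trp63, a regulator of stratified epithelia, had none, and its nearest region had an edge 1993 bp away.

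Pluripotency factors had a member for 17 of 20 genes (85.0%, 64.0 to 94.8%), against 73.6% of all autosomal protein-coding genes, and 11 of the 20 principal TSSs were CpG-poor. Sox2 had the widest, 2395 bp, Klf2 had 1656 bp and Klf4 1380 bp over the principal TSS, all CpG-rich promoters. Esrrb, which encodes a nuclear receptor of the naive state, had 3 of 3 TSS groups open, with 1613 bp over its principal TSS. Of the CpG-poor promoters, Nanog had 244 bp over the principal TSS, Tdgf1 152 bp, Zfp42 (which encodes REX1) 596 bp and Pou5f1 671 bp. Prdm14 had 758 bp, Dppa4 952 bp and Tfcp2l1 1085 bp. The widths of the classes overlapped, as the CpG-rich promoters of Sall4 and Fgf4 had 660 and 921 bp. Nr5a2 had no region over its principal TSS and 2 of 3 groups open. Dppa3, Lefty1 and Lefty2 had no member, and the nearest region was centred 1010.5, 1256 and 1413 bp from a TSS, of which only that of Dppa3 was just outside the limit.

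Every listed housekeeping gene and developmental regulator was open, including the 5 and 7 with a CpG-poor principal TSS. Over all autosomal protein-coding genes the share was 73.6%, with 99.3% for CpG-rich and 50.5% for CpG-poor principal TSSs. Of the housekeeping genes, 15 had a CpG-rich one. All 20 listed housekeeping genes had a member (95% Wilson interval 83.9 to 100%), with 1425 bp at Actb, 1580 bp at Polr2a and 751 bp at Rplp0 over the principal TSS. Gapdh had members of 1259 and 277 bp, of which none covered its principal TSS (chr6:125166467). The narrower one (chr6:125166468-125166744) began at the base next to that TSS, and the wider one covered another annotated TSS of the gene. All 25 developmental regulators had a member as well (86.7 to 100%), 18 of them with a CpG-rich TSS. As the list pools untreated and dox-treated cells, it does not give in which of them these regions were called. The proneural gene Neurog2 had 2492 bp, Hoxd13 had 1795 bp, Cdx2, a trophectoderm factor, 1772 bp, and T, the mesoderm factor brachyury, 1703 bp over the principal TSS. At Otx2, a head and epiblast factor, 6 members of 159 to 1023 bp lay at 3 of 3 TSS groups. At Tbx5, Hoxb1, Sox17, Nkx2-2, Eomes and Foxa2 no region covered the principal TSS. A region in the list gives no information on transcription.

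Genes of differentiated tissues had a member for 11 of 30 (36.7%, 21.9 to 54.5%), and all 30 principal TSSs were CpG-poor. The share was 73.6% over all autosomal protein-coding genes and 50.5% over all those with a CpG-poor principal TSS, which lies inside the interval of the list. Principal TSSs covered by a region included those of Cd79a (594 bp) and Cd3e (554 bp), which encode parts of the B-cell and T-cell receptors, and of Tnnt3 (1169 bp) and Mbp (776 bp), genes of skeletal muscle and myelin. The 19 without a member included Alb, Apoa1, Ttr and Fgb of the liver, Ins2, Myh6, Ckm, Hbb-bs, Krt5 and Il2. Their nearest region had an edge at a median of 3835 bp from a TSS, and within 5 kb for 13 of the 19.

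Gene families defined by symbol spanned the whole range. A member was present at 78 of 79 cytosolic and 78 of 78 mitochondrial ribosomal protein genes, at 38 of 38 genes of proteasome subunits and at 34 of 34 of respiratory complex I. Of these last 3 families, 26, 8 and 12 genes were in head-to-head pairs. Zinc finger genes named Zfp were open in 359 of 383 cases (93.7%), including 167 of 189 with a CpG-poor TSS. Of 39 Hox genes 34 were open, and 18 of 53 keratin genes were. Olfactory receptor genes were open in 106 of 1125 cases (9.42%, 7.85 to 11.3%), with a median of 260 bp for the widest member, vomeronasal receptor genes in 12 of 326 (3.68%) and defensin genes in 8 of 64 (12.5%). Over all autosomal protein-coding genes the share was 73.6%. By autosome it ran from 59.4% on chromosome 14 to 84.6% on chromosome 12.

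**Figure D5:**
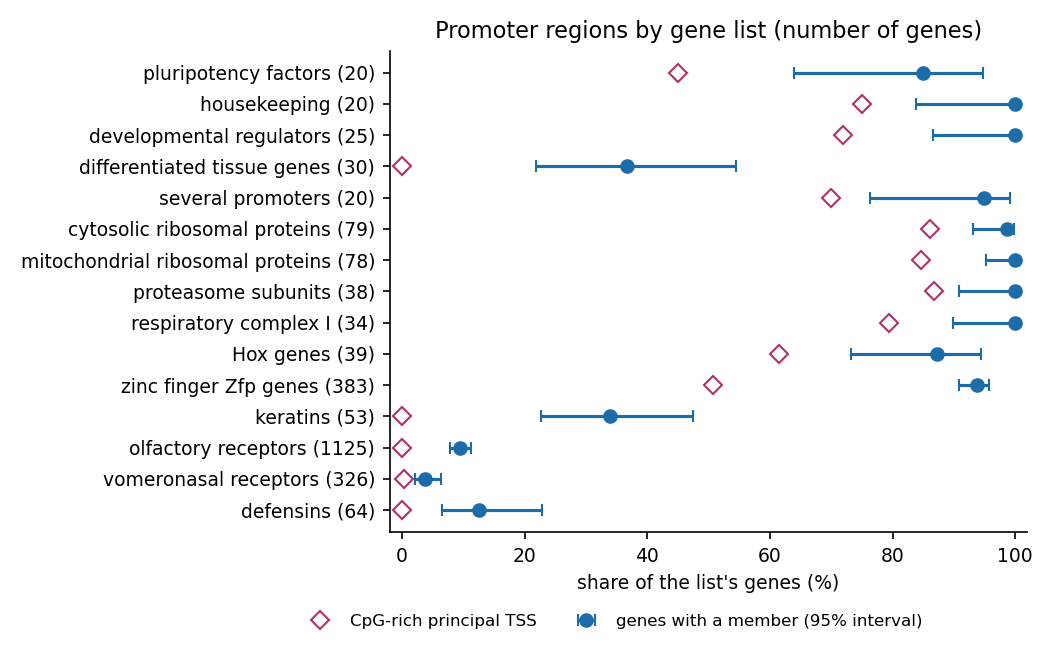
Gene lists and families, with the number of genes in brackets. The x axis gives the share in percent of the genes with a member (filled circles with 95% Wilson intervals) and of those with a CpG-rich principal TSS (open diamonds). Housekeeping, developmental, mitochondrial ribosomal, proteasome and complex I genes stand at 100%, differentiated tissue genes at 36.7% and vomeronasal receptor genes at 3.68%. Pluripotency factors stand at 85.0% with 45% CpG-rich.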

How the data were processed

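The authors performed ATAC-seq in 12 libraries, aligned reads to mm10 (GRCm38) with STAR 2.6.1c, removed duplicates with Picard, called peaks with MACS 2.1.1.20160309 and merged the peaks of both cell lines with BEDTools. Whether peaks were called per replicate, and whether a published dataset in serum + LIF entered the merge, is not given in the sources used here. The deposited file holds positions, with 0 columns of single samples. The widest regions, which the paper's methods remove later, are still in it. Merging widens a region with each library that adds a peak, and weak and strong peaks count alike.

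Positions were counted from 1 and set against 56327 protein-coding transcripts of 20757 autosomal genes (GENCODE M21) and the GRCm38 sequence. APPRIS tags chose the principal TSS, with the 5′-most TSS in ties. A gene was single where no TSS of another protein-coding gene lay within 1 kb of its TSSs, and a member where its centre was within 1 kb of the TSSs of 1 gene only. Shares have Wilson intervals (95%), which cover counting error over genes or regions and no replicate error. Differences were tested with an exact two-sided sign test over 19 autosomes, with Benjamini-Hochberg adjustment over 24 tests (threshold 0.05). Of these, 17 were added after the values were seen. Sequence repeats were counted as 31-base words in steps of 10 bases. Named genes are those of the gene lists, the 10 with the most open TSS groups and the 10 widest members. Some listed genes are not reported here. Other genes were named after their values were seen. The members and lists were chosen with earlier results of these data known. The functions were tested on simulated data. Python 3.11.15, NumPy 2.4.6, pandas 2.3.3, SciPy 1.17.1, Numba 0.67.0 and matplotlib 3.10.9 were used. Alternatives changed the TSS set, limits, width filter, joining of regions, CpG classes and TSS groups.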

Additional observations from a re-analysis of the deposited data

How the results depend on the processing

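No paired analysis was possible because single libraries have no values in the merged peaks. For the same reason a stricter peak threshold and leaving out replicates could not be run. Of 36 alternative values over 10 results, 4 of them chosen after seeing the data, 27 had the main direction and the same side of the threshold, or a count within 1.5 times the main one, and none reversed. In these alternatives a p-value was multiplied by the 24 tests. The share of genes with a member, 73.6%, moved outside its interval of 73.0 to 74.2% in each setting, to 69.1% with a limit of 500 bp, 68.6% where a region had to cover a TSS, 70.2% with 1 TSS per gene and 72.4% with regions of at least 200 bp. The number of genes with several open TSS groups, 1959, was 3082 with groups 500 bp apart and 1128 with basic transcripts only. The difference between head-to-head and single genes in the share with a member, 27.01 percentage points, was 0.271 among CpG-rich promoters, and the difference in width, 233 bp, was 50.0 bp among CpG-rich members that cover a TSS. The difference between principal and other TSS groups, 37.7 points, was 0.0663 among CpG-rich groups. The number of members ran from 14480 with 1 TSS per gene to 22566 with a limit of 2 kb. The cause of these changes was not tested beyond the construction of each setting. Without depth, a missing region cannot be told from a peak under the calling threshold.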
